A study of Mus musculus with 4 samples.

Results

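A set of 10 mouse genes of the Notch pathway was followed across the 4 libraries of the series: the receptors Notch1, Notch2 and Notch3, the ligands Dll1, Dll3 and Jag1, and the target genes Hes1, Hes5, Hey1 and Nrarp. They were chosen by gene symbol, and all 10 were found among the 30637 genes of the expression table. The libraries were made from poly(A) RNA of telencephalic tissue, the embryonic forebrain region that gives rise to cortex and basal ganglia, taken from C57BL/6 embryos at embryonic day 13. Pd1CKO 1 and Pd1CKO 2 came from embryos with a conditional knockout of Pd1, read here as Pdcd1, which encodes the immune checkpoint receptor PD-1. Control 1 and control 2 are called wild type in the sample titles, while the design text gives them the floxed genotype Pd1fl/fl. For the Cre driver, the litters and any pooling of embryos, nothing is given in the labels. Nothing says that the libraries of a group came from separate litters, so p-values measure the spread between these libraries, which may be technical.

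Notch is a membrane receptor that is cleaved when a ligand on a neighbouring cell binds it. The freed intracellular domain enters the nucleus, joins the DNA-binding protein RBPJ and its Mastermind co-activators, and switches on target genes such as the Hes and Hey repressors. In the embryonic forebrain, proneural factors raise Delta ligands in cells starting to become neurons, and Hes proteins in the neighbouring radial glia hold proneural genes down and keep those cells as progenitors.

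The unit of all levels is FPKM, a fragment count divided by exon length and library size, so levels can be compared between genes. The values implied 18740000 and 18100000 counted fragments in Pd1CKO 1 and 2, against 18570000 and 16200000 in control 1 and 2. Pdcd1 was listed at 0 in both Pd1CKO libraries, against 0 in control 1 and 0.416 FPKM, 13 fragments, in control 2. A count of 0 allows up to 0.0829 and 0.0859 FPKM in Pd1CKO 1 and 2, and 0.0837 FPKM in control 1 (limit of 3 fragments per library), so the target gene was too weakly expressed to check the genotype labels. Lhx2, a transcription factor of the embryonic telencephalon used here as a marker of the labelled tissue, had 131 and 58.6 FPKM in Pd1CKO libraries, against 104 and 61.9 FPKM in controls. The Y-linked Ddx3y had 0 and 9.48 FPKM in Pd1CKO 1 and 2, against 0 in both controls. Xist, an RNA of female cells, had 61.2 and 0.00308 FPKM in Pd1CKO libraries, against 34.7 and 54.0 FPKM in controls. By these genes Pd1CKO 2 looked male and the other libraries female, so sex was not matched between genotypes at number 2 or between numbers in Pd1CKO. Libraries stood apart by replicate number more than by genotype: of 13927 genes, the fits given below called 4877 between numbers and 0 between genotypes. Deviations of same-numbered libraries from their group means correlated at 0.799 over these genes. The first principal component held 81.6% of the variance, but which libraries it separates was not recorded. The labels do not say what the number marks. Members are therefore given by genotype and by number.

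Among the receptors, Notch1 (ENSMUSG00000026923, chr2:26457903-26516663, minus strand, mm10 as in the files) had 15.7 and 9.97 FPKM in Pd1CKO 1 and 2, against 13.2 and 9.74 FPKM in control 1 and 2. Notch2 (ENSMUSG00000027878, chr3:98013527-98150361, plus strand) had 12.2 and 8.58 FPKM in Pd1CKO libraries, against 6.40 and 7.20 FPKM in controls. Notch3 (ENSMUSG00000038146, chr17:32120820-32166880, minus strand) had 21.8 and 7.61 FPKM in Pd1CKO libraries, against 20.7 and 7.81 FPKM in controls. For Notch1 and Notch3 the libraries numbered 2 were the low ones in both genotypes, whereas for Notch2 both Pd1CKO libraries lay above both controls. Notch1 and Notch2 are receptors of neural progenitors, and Notch3 is known also for its role in the mural cells of vessels.

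Of the ligands, Dll1 (ENSMUSG00000014773, chr17:15367354-15376872, minus strand), the Delta ligand that activates Notch on neighbouring cells, had 26.8 and 12.2 FPKM in Pd1CKO 1 and 2, against 24.8 and 11.8 FPKM in control 1 and 2. Dll3 (ENSMUSG00000003436, chr7:28293553-28302238, minus strand), a Delta family member that inhibits Notch within the cell that makes it, had 18.2 and 2.31 FPKM in Pd1CKO libraries, against 26.1 and 2.27 FPKM in controls. Jag1 (ENSMUSG00000027276, chr2:137081456-137116644, minus strand), a ligand of the Serrate type, had 5.47 and 2.88 FPKM in Pd1CKO libraries, against 3.61 and 2.68 FPKM in controls. All 3 ligands were lower in the libraries numbered 2, Dll3 by far the most of the 3, and the genotypes overlapped for each.

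Of the targets, Hes1 (ENSMUSG00000022528, chr16:30064384-30067796, plus strand), a repressor that oscillates in progenitors, had 28.8 and 6.37 FPKM in Pd1CKO 1 and 2, against 23.3 and 6.40 FPKM in control 1 and 2. Hes5 (ENSMUSG00000048001, chr4:154960923-154962371, plus strand), the repressor most used as a readout of Notch in radial glia, had 46.6 and 7.90 FPKM in Pd1CKO libraries, against 68.2 and 9.51 FPKM in controls. Control 1 held the highest Hes5 level and the libraries numbered 2 the lowest. Hey1 (ENSMUSG00000040289, chr3:8663359-8667256, minus strand), a related repressor, had 18.9 and 7.75 FPKM in Pd1CKO libraries, against 16.0 and 8.15 FPKM in controls. Nrarp (ENSMUSG00000078202, chr2:25180758-25183339, plus strand), a small ankyrin repeat protein that feeds back to limit Notch signalling, had 14.4 and 1.11 FPKM in Pd1CKO libraries, against 17.2 and 0.430 FPKM in controls. The 2 low Nrarp values rest on 52 fragments in Pd1CKO 2 and 18 in control 2, whereas each other member had at least 105 fragments in every library.

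**Figure D1:**
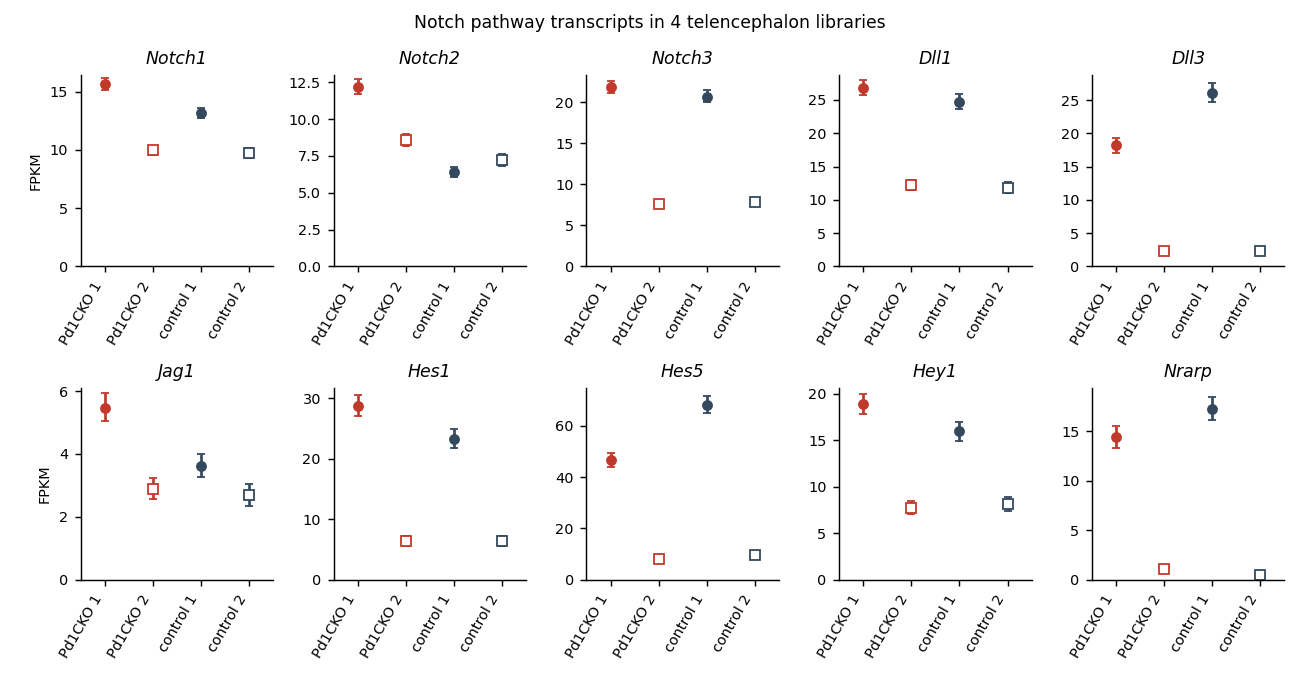
FPKM of the 10 genes, 1 panel per gene, in Pd1CKO 1, Pd1CKO 2, control 1 and control 2 on an axis that starts at 0; filled circles are libraries numbered 1, open squares those numbered 2, and lines exact 95% Poisson intervals of counting error. Hes5 reached 46.6 FPKM in Pd1CKO 1 and 68.2 FPKM in control 1, against 7.90 and 9.51 FPKM in the libraries numbered 2 of the same genotypes.

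The promoters of Hes5, Nrarp and Dll3 are shown because these were the members at least 4 times lower in the libraries numbered 2 in both genotypes. Each is the 250 bases before the RefSeq start in GRCm38.p6, written 5' to 3' on the strand of the gene: chr4:154960673-154960922 (plus) for Hes5, chr2:25180508-25180757 (plus) for Nrarp and chr7:28301786-28302035 (minus) for Dll3. The Dll3 window lies inside the interval given above for that gene, which starts at 28302238 on the minus strand. For Dll3 the RefSeq start is thus downstream of the start in the expression table. Capitals mark the core of the RBPJ site, TGGGAA, or its reverse complement.
Hes5: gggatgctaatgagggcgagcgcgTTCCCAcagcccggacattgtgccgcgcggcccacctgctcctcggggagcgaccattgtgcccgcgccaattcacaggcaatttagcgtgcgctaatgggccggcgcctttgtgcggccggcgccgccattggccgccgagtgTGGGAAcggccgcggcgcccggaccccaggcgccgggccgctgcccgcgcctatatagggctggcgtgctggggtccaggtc
Nrarp: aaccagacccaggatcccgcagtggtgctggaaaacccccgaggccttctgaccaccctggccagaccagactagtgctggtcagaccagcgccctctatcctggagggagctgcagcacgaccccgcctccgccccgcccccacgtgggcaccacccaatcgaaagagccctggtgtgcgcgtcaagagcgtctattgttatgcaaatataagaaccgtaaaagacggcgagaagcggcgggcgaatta
Dll3: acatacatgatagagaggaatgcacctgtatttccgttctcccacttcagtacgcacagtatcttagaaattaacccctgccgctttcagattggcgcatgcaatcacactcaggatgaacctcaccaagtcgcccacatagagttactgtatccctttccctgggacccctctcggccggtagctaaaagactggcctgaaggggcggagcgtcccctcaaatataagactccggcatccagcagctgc
The Hes5 window held 2 matches, the first bases of which lay 226 bases before the start on the reverse strand and 82 bases before it on the forward strand. The Nrarp and Dll3 windows held no run of these letters. RefSeq windows were found for 8 of the 10 members, and 1 of these 8 had the core on either strand, against 21.6% of 32851 promoter windows of the same length. The E-box CANNTG, the kind of site proneural factors bind, was in the windows of 5 of 8 members, against 66.2% of all windows. The N-box CACNAG, a Hes-binding sequence, was in those of 4 of 8, against 36.7%. Both were searched on both strands, and E-box and N-box letters can overlap one another. A match of letters is not a measured binding site.

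The order of the members by FPKM differed with replicate number. In the libraries numbered 2, Dll1 averaged 12.0 ± 0.284 FPKM (SD, n = 2 libraries, 1 per genotype), followed by Notch1, Hes5, Hey1, Notch2, Notch3, Hes1, Jag1, Dll3 and, at 0.771 ± 0.482 FPKM, Nrarp. In the libraries numbered 1, Hes5 led at 57.4 ± 15.3 FPKM, followed by Hes1, Dll1, Dll3, Notch3, Hey1, Nrarp, Notch1, Notch2 and, at 4.54 ± 1.31 FPKM, Jag1. At number 2 the libraries of neighbours in this order overlapped for Hes5 with Hey1, Hey1 with Notch2 and Notch2 with Notch3. At number 1 they overlapped for Hes1 with Dll1, Dll1 with Dll3, Dll3 with Notch3, Hey1 with Nrarp and Nrarp with Notch1. The lead of Hes5 at number 1 and of Dll1 at number 2 thus lay outside the spread of the next gene.

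Within each role the make-up moved with number as well. Dll3 supplied 36.0% and 13.2% of the summed ligand FPKM in Pd1CKO 1 and 2, against 47.9% and 13.5% in control 1 and 2. Dll1 supplied 53.1% and 70.2% of it in Pd1CKO libraries, against 45.4% and 70.5% in controls. Dll1 was therefore the leading ligand in 3 of the 4 libraries, and Dll3 led narrowly in control 1. Notch3 supplied 44.0% and 29.1% of the receptor sum in Pd1CKO libraries, against 51.4% and 31.5% in controls. It was the leading receptor in the libraries numbered 1, and Notch1, with 38.1% in Pd1CKO 2 and 39.4% in control 2, led in those numbered 2. Hes5 supplied 42.9% and 34.2% of the target sum in Pd1CKO libraries, against 54.7% and 38.8% in controls, and Nrarp 13.2% and 4.81% in Pd1CKO libraries, against 13.8% and 1.76% in controls. Hes5 was the highest of the 4 targets in every library, but in Pd1CKO 2 Hey1, at 7.75 FPKM, lay within the counting interval of Hes5, 6.83 to 9.09 FPKM.

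**Figure D2:**
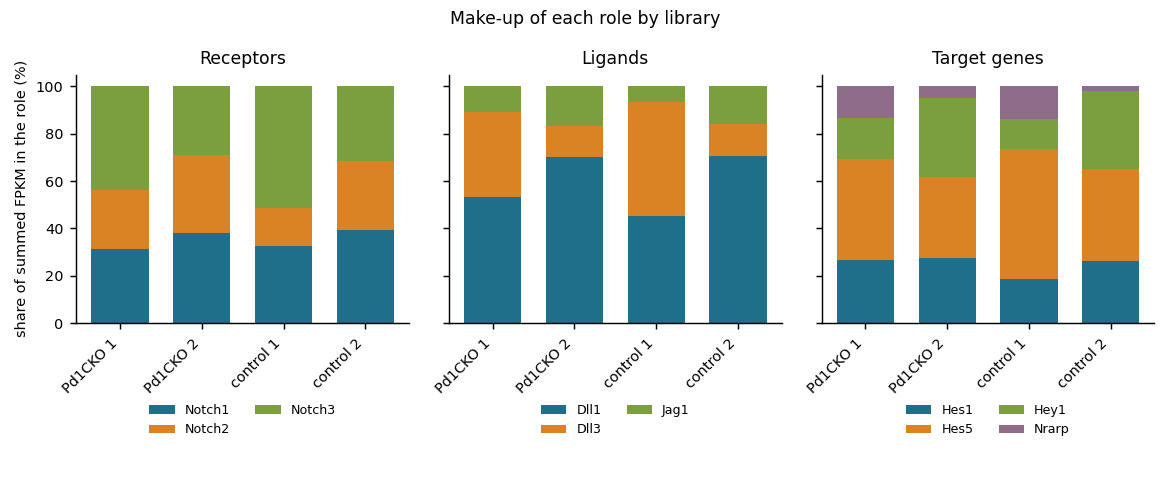
Share of the summed FPKM of receptors, ligands and targets taken by each gene, in percent, for Pd1CKO 1, Pd1CKO 2, control 1 and control 2; each bar is 1 library and its segments add to the whole. Dll1 took 70.2% of the ligand sum in Pd1CKO 2 and 70.5% in control 2, and Dll3 took 13.2% and 13.5% there.

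Sums over each role showed the same split. The 4 targets together had 109 and 23.1 FPKM in Pd1CKO 1 and 2, against 125 and 24.5 FPKM in control 1 and 2. The ligands had 50.5 and 17.4 FPKM in Pd1CKO libraries, against 54.5 and 16.8 FPKM in controls, and the receptors 49.7 and 26.2 FPKM in Pd1CKO libraries, against 40.3 and 24.7 FPKM in controls. Targets were lower at number 2 by more than receptors were. In bulk tissue, fewer cells that express a gene and less RNA per cell cannot be told apart.

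The comparison the study was designed for is Pd1CKO with control. None of the 10 members passed it, and neither did any other gene: limma on log2(FPKM + 1) with Benjamini-Hochberg adjustment called 0 of 13927 genes (0%), with 47 at an unadjusted p under 0.05. With limma-voom on recovered fragments, 0 were called and 52 had an unadjusted p under 0.05. Neither fit has a term for number, so the split by number enters the spread that genotype is set against. With replicate number as a block, 5 genes were called, none of them a member, and 621 had an unadjusted p under 0.05. A lack of calls is therefore not a sign that the genotypes are alike. In the limma fit on log2(FPKM + 1) without the block, all 10 members had an adjusted p of 0.9998. Notch2 averaged 10.4 ± 2.55 FPKM in Pd1CKO and 6.80 ± 0.563 FPKM in control libraries (SD, n = 2 each), and its log2 difference of 0.53 ± 0.24 (SE) had a 95% interval of -0.12 to 1.18. Hes5 averaged 27.2 ± 27.3 FPKM in Pd1CKO and 38.8 ± 41.5 FPKM in control libraries, with a log2 difference of -0.39 ± 1.24 and an interval of -3.72 to 2.94. For Nrarp the interval was wider still, from -4.10 to 4.41 around 0.16 ± 1.58. The interval reached past 1 on the log2 scale in both directions for all members but Notch1, Notch2 and Jag1.

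For the remaining members the limma log2 differences between Pd1CKO and control were 0.13 ± 0.30 for Notch1, 0.02 ± 0.67 for Notch3 and 0.08 ± 0.53 for Dll1 (SE). They were -0.24 ± 1.35 for Dll3, 0.28 ± 0.33 for Jag1, 0.14 ± 0.91 for Hes1 and 0.08 ± 0.53 for Hey1. In all, 8 members had values above 0 and 2 below it, with a median of 0.11, against 0.02 over all genes tested. In the limma-voom fit Notch3 was at -0.01. Leaving out Pd1CKO 1 turned the sign of 7 of these 10 values, and Notch2 was the member whose sign held whichever library was left out, at 0.30 to 0.76. The libraries of the genotypes did not overlap for Notch2, which makes 1 of 10 members with both Pd1CKO libraries above both controls, against 8.37% of all genes tested. No member had both Pd1CKO libraries below both controls, against 6.14%.

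Set within each number, the ratio of Pd1CKO to control can be read against counting error, which is not the spread between embryos. Notch2 was 1.90 times its control at number 1, with an exact Clopper-Pearson 95% interval of 1.78 to 2.04, and 1.19 times at number 2, with an interval of 1.11 to 1.28. Hes5 was 0.683 times its control at number 1, with an interval of 0.633 to 0.735, and 0.831 times at number 2, with an interval of 0.680 to 1.01. Both lay on 1 side at each number, but the Hes5 interval at number 2 took in 1.

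The other ratios that left 1 at number 1 did not repeat on the same side of 1, clear of counting error, at number 2. Jag1 was 1.51 times its control at number 1 (1.33 to 1.72) and 1.07 times at number 2 (0.907 to 1.28). Dll3 was 0.696 times its control at number 1 (0.640 to 0.756) and 1.01 times at number 2 (0.774 to 1.33). Nrarp changed side, at 0.834 times its control at number 1 (0.753 to 0.924) and 2.58 times at number 2 (1.49 to 4.70).

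At number 1 Notch1 was 1.19, Dll1 1.08, Hes1 1.23 and Hey1 1.18 times the control. At number 2 these ratios were 1.02 for Notch1, 1.03 for Dll1, 0.996 for Hes1 and 0.951 for Hey1, each with an interval that held 1. Notch3 was closest to its control at number 1, with 1.06, and had 0.975 at number 2. Pd1CKO lay above the control of its own number at both numbers for 4 of 10 members, Notch1, Notch2, Dll1 and Jag1, against 28.2% of all genes, and below it at both for Hes5, against 23.5%.

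**Figure D3:**
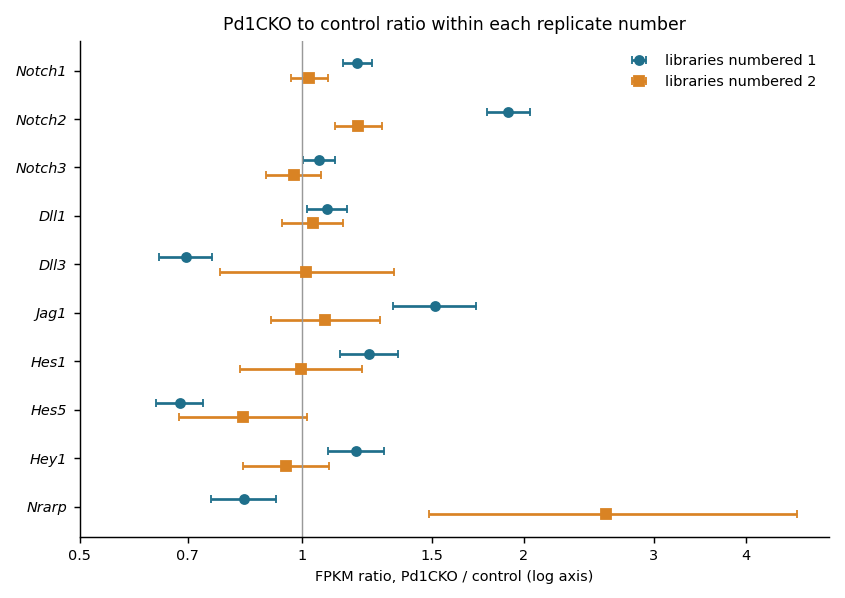
Ratio of FPKM in Pd1CKO to the control of the same replicate number, on a log axis, for each of the 10 genes, with number 1 and number 2 drawn as separate points and exact 95% intervals of counting error as lines. Notch2 lies above 1 at both numbers, at 1.90 and 1.19, and Nrarp lies on opposite sides, at 0.834 and 2.58.

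Ratios between members and their partners moved with number as well. The ratio of Hes5 to Hes1 was 1.62 and 1.24 in Pd1CKO 1 and 2, against 2.92 and 1.49 in control 1 and 2, lower in Pd1CKO at each number. Hes5 relative to Sox2, a transcription factor of progenitors, was 0.327 and 0.157 in Pd1CKO libraries, against 0.457 and 0.179 in controls. Hes1 relative to Sox2 lay the other way by genotype, higher in Pd1CKO at each number, with 0.202 and 0.126 in Pd1CKO libraries, against 0.157 and 0.120 in controls. Nrarp relative to Hes5 was also higher in Pd1CKO, at 0.309 and 0.141 in Pd1CKO libraries, against 0.253 and 0.0452 in controls. Taken as point values, the targets did not share 1 direction by genotype in these ratios, which carry no counting interval. In Pd1CKO 2 and control 2 they rest on 235 and 211 fragments for Hes1, 195 and 210 for Hes5, and 52 and 18 for Nrarp. The interval of Pd1CKO over control at number 2 held 1 for Hes1 (0.824 to 1.21) and for Hes5 (0.680 to 1.01). No pattern by genotype is read from them. The ratio of Dll3 to Dll1 was 0.678 and 0.188 in Pd1CKO libraries, against 1.06 and 0.192 in controls. Notch3 relative to Notch1 was 1.40 and 0.763 in Pd1CKO libraries, against 1.57 and 0.801 in controls. All of these ratios were lower at number 2 within each genotype. Dll1 relative to Neurog2, the proneural factor known to raise Delta ligands, went the other way with number, at 0.174 and 0.255 in Pd1CKO libraries, against 0.163 and 0.264 in controls. These ratios, and Sox2 as a partner, were chosen after the values were seen and carry no test.

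Between replicate numbers most of the 10 members differed. In the limma fit of number 2 against number 1, 8 of 10 members fell and none rose, against 18.5% of all 13927 genes called lower and 16.5% called higher. The share called in either direction was 35%. The members' median log2 difference was -1.20, against 0.03 over all genes tested. The split by number was known from earlier results of these data, and these values describe where the members lie in it. With globin and mitochondrial genes left out of the total, 3468 genes were called higher and 1990 lower, against 2304 and 2573, and the median log2 difference over all genes was 0.15, against 0.03. Notch1 was then not called, at -0.37 (limma adjusted p = 0.0669), and the other 7 called members fell by 0.90 to 3.17.

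The largest fall was that of Nrarp, which averaged 0.771 ± 0.482 FPKM at number 2 and 15.8 ± 2.02 FPKM at number 1 (SD, n = 2 each). Its log2 difference was -3.27 ± 0.21 (SE; limma adjusted p = 0.000938), and number 2 stood at 0.077 of number 1 in Pd1CKO and at 0.025 in controls. Dll3 averaged 2.29 ± 0.0224 FPKM at number 2 and 22.2 ± 5.62 FPKM at number 1, a log2 difference of -2.79 ± 0.18 (limma adjusted p = 0.000885). Number 2 stood at 0.127 of number 1 for Dll3 in Pd1CKO and at 0.0871 in controls, so neither gene overlapped between numbers. Hes5 averaged 8.71 ± 1.14 FPKM at number 2 and 57.4 ± 15.3 FPKM at number 1, a log2 difference of -2.57 ± 0.20 (limma adjusted p = 0.00131). Hes1 averaged 6.38 ± 0.0163 FPKM at number 2 and 26.1 ± 3.84 FPKM at number 1, a log2 difference of -1.87 ± 0.12 (limma adjusted p = 0.000944). At number 2 the Hes1 levels of the genotypes differed by less than their counting error.

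The members with smaller falls were Notch3, Dll1, Hey1 and Notch1. Notch3 averaged 7.71 ± 0.140 FPKM at number 2 and 21.3 ± 0.812 FPKM at number 1, a log2 difference of -1.35 ± 0.09 (limma adjusted p = 0.000944). Dll1 fell by 1.04 on the log2 scale (limma adjusted p = 0.00175), Hey1 by 1.04 (0.00309) and Notch1 by 0.50 (0.0229). Jag1 averaged 2.78 ± 0.142 FPKM at number 2 and 4.54 ± 1.31 FPKM at number 1 and did not pass, at -0.53 ± 0.18 (limma adjusted p = 0.0761). Notch2 did not pass either, at -0.16 ± 0.28 (limma adjusted p = 0.688), and its numbers ran opposite ways, with number 2 at 0.704 of number 1 in Pd1CKO and at 1.12 in controls.

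For 9 of 10 members, all but Notch2, both libraries numbered 2 lay below both numbered 1, against 34.1% of all genes tested. A level at least 4 times lower at number 2 in both genotypes was met by Nrarp, Dll3 and Hes5, 3 of 10 members, against 1.74% (242 genes) overall. Hes1 came just short of it, at 0.221 of number 1 in Pd1CKO and 0.274 in controls. Without control 2 the fit called 2614 genes in all and without Pd1CKO 2 it called 2787, against 4877 with all libraries, and Notch1 was not called in either (limma adjusted p = 0.129 and 0.101). Hes5, Hes1, Hey1, Nrarp, Dll1, Dll3 and Notch3 were called lower in all alternatives run.

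**Figure D4:**
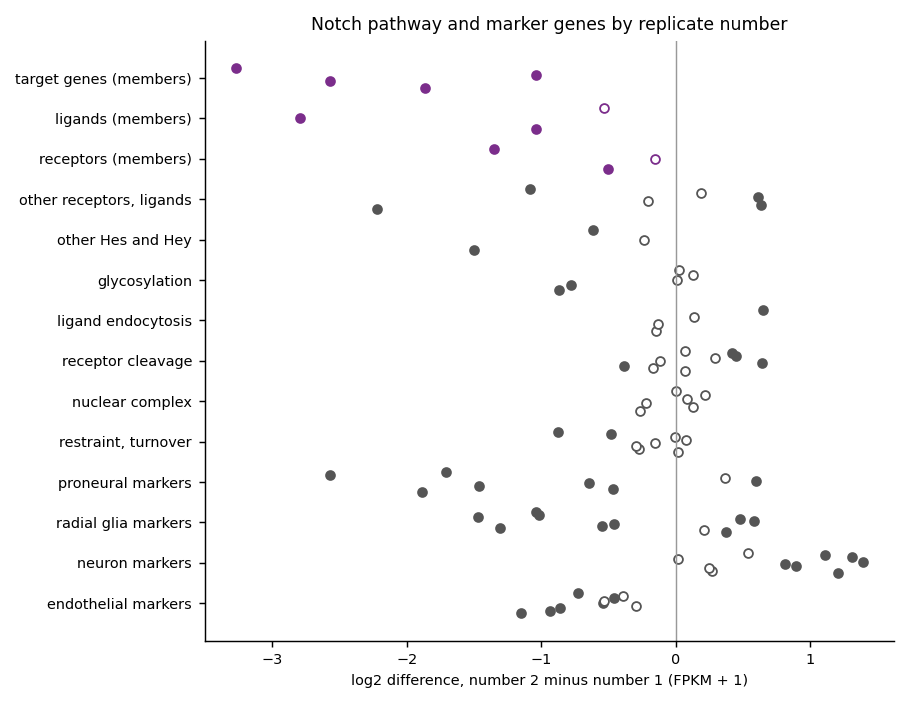
log2 difference between number 2 and number 1 on the log2(FPKM + 1) scale for every gene tested in each list, 1 point per gene, with Notch members in purple, filled points for a limma adjusted p under 0.05 and open points otherwise. All 4 targets are filled and lie left of 0, with a median of -2.22, while the 6 genes of the nuclear complex are open and lie near 0 and the neuron markers lie to its right, with a median of 0.85.

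Differences by number also ran with base composition. Over all genes tested, the median log2 difference between number 2 and number 1 was 0.13 for the 3605 genes with transcripts below 45% GC and -0.65 for the 657 at 60% GC or more. Hes5 has 62.1% GC and Dll3 61.0%, the highest of the members, and Nrarp has 54.5%, in a range where the median over genes was 0.03. With trends in transcript length and GC content removed, an alternative added after the data were seen, Hes5 stood at -1.68 (limma adjusted p = 0.00325), Dll3 at -2.155 and Nrarp at -3.08. Hes5 was the member that moved most under it. Median differences ran with exon length as well, at -0.18 for genes below 1500 bases and 0.29 for those of 12000 or more. Hes5, at 1363 bases, was in the shortest range. The fit removed both trends together, so the parts of length and GC in this move cannot be told apart. In the same fit Jag1 passed, at -0.68 (limma adjusted p = 0.0260).

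**Figure D5:**
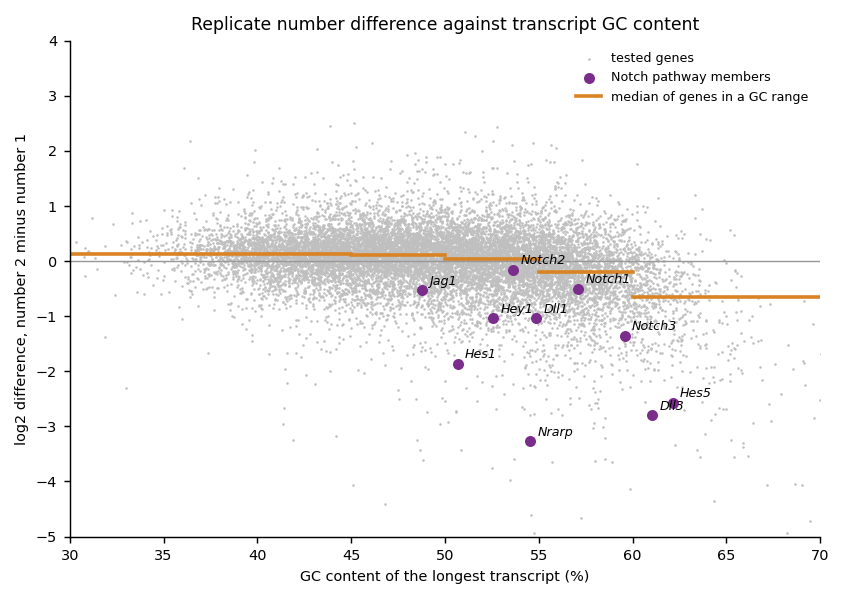
log2 difference between number 2 and number 1 against the GC content of the longest transcript in percent, 1 grey point per gene tested, with the 10 members labelled and the median of each GC range drawn as a line; 20 genes lie outside the axes. Hes5 at 62.1% GC and Dll3 at 61.0% lie below the median of -0.65 in their range.

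Some member exons are shared with other annotated genes, and no source used here says if the counting was stranded. In the Gencode M21 annotation 79.4% of the exon bases of Nrarp lie under Gm38287 on the opposite strand, a gene not analysed here. Of the exon bases of Hes5, 31.8% lie opposite Gm20421, which had 0 FPKM in both Pd1CKO libraries, against 0.401 and 0 FPKM in control 1 and 2. Of those of Dll1, 20.5% lie opposite A930024N18Rik, which stayed below 1 FPKM in every library. Without strand, reads of Nrarp and Gm38287 cannot be told apart over these bases, so Nrarp levels are uncertain to that extent. On the opposite strand, Notch1 shared 7.50% of its exon bases with 0610009E02Rik and 2.91% with Gm13568, and Notch3 6.03% with Gm17276. Notch2 shared 5.02% with Gm42820 on the same strand, which stranded counting would not separate.

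Of 46 further pathway genes 41 were tested, and none was called between Pd1CKO and control, with 21 values above 0 and 20 below. Between numbers 6 of the 41 rose and 9 fell, near the shares over all genes tested of 16.5% called higher and 18.5% called lower, with a median log2 difference of -0.01. Dlk1, a Delta-like protein that lacks the domain by which Delta binds Notch, had 14.9 and 3.64 FPKM in Pd1CKO libraries, against 31.1 and 4.05 FPKM in controls, and fell at number 2 by 2.22 on the log2 scale (limma adjusted p = 0.00651). Dner, a neuronal transmembrane protein related to Delta, rose at number 2 by 0.61 (limma adjusted p = 0.00579), with 22.2 and 35.1 FPKM in Pd1CKO libraries, against 23.6 and 36.0 FPKM in controls. Dll4, the Delta ligand of vessels, stayed between 1.61 and 2.47 FPKM in all libraries.

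Genes that modify the receptors differed among themselves. Of 5 glycosylation genes 2 fell between numbers and none rose. Mfng, a Fringe sugar transferase that alters which ligands a receptor answers to, had 40.9 and 24.9 FPKM in Pd1CKO libraries, against 46.4 and 24.9 FPKM in controls (-0.78 at number 2, limma adjusted p = 0.00422). Rfng, another Fringe enzyme, had 28.2 and 32.5 FPKM in Pd1CKO libraries, against 35.3 and 31.6 FPKM in controls, and was not called (0.02). Mib1, the ubiquitin ligase that lets ligands be taken up in the sending cell, had 13.3 and 10.4 FPKM in Pd1CKO libraries, against 9.36 and 9.63 FPKM in controls. It was above the control of its number at both numbers, as was Notch2, and it was called in neither fit. Of the 4 ligand endocytosis genes 1 rose between numbers and none fell.

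Of 9 tested genes for receptor cleavage 3 rose and 1 fell at number 2. Psenen, a subunit of the gamma-secretase complex that frees the intracellular domain, had 26.9 and 34.5 FPKM in Pd1CKO libraries, against 45 and 38.8 FPKM in controls. Its libraries did not overlap between genotypes, with Pd1CKO the lower, as in 6.14% of all genes tested, and its log2 difference of -0.44 was not called. Psenen had the smallest genotype p of its list and was named partly for that, which favours such a gap. None of the 6 genes of the nuclear complex was called in either direction. Spen, a co-repressor that RBPJ recruits, had 15.3 and 14.3 FPKM in Pd1CKO libraries, against 12.7 and 13.7 FPKM in controls. Spen and Mib1, named by the same rule as Psenen, had both Pd1CKO libraries above both controls, as had 8.37% of all genes tested. Itch and Fbxw7, named by that rule among genes that restrain or turn over Notch, lay the same way. Their log2 differences of 0.22 and 0.18 were not called. Adam10, a cleavage gene the rule did not name, also lay above both controls. Adam17 and Maml1, named by the rule, overlapped between genotypes. The share of such genes among the 41 tested pathway genes was not calculated. Rbpj, added here after its values were seen, had 8.93 and 8.72 FPKM in Pd1CKO libraries, against 7.74 and 9.07 FPKM in controls. It encodes the DNA-binding protein of the pathway and ranged over less than any of the 4 targets.

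Of 8 tested genes that restrain or turn over Notch 2 fell at number 2 and none rose. The Deltex gene Dtx3 had 103 and 104 FPKM in Pd1CKO libraries, against 150 and 99.4 FPKM in controls, with control 1 standing apart. Of 3 tested further Hes and Hey genes 2 fell, Hes6 by 1.5 on the log2 scale (limma adjusted p = 0.00310) and Heyl by 0.62 (0.0177). Hes6, a family member that opposes Hes1 and promotes neuronal differentiation, had 93.4 and 38.4 FPKM in Pd1CKO libraries, against 130 and 38.1 FPKM in controls, a higher level than that of any member in every library.

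Markers of the cells in the tissue moved with number too, and their part in the members' differences was not tested. Of the 10 radial glia markers 6 fell and 3 rose at number 2, with summed levels of 834 and 632 FPKM in Pd1CKO libraries, against 862 and 643 FPKM in controls. Vim, an intermediate filament of radial glia, fell by 1.04 (limma adjusted p = 0.00251), and Fabp7, their fatty acid binding protein, rose by 0.37 (0.0308). Of the 8 proneural genes 6 fell and 1 rose. Neurog2 had 154 and 47.9 FPKM in Pd1CKO libraries, against 152 and 44.8 FPKM in controls. Of the 10 neuron markers 6 rose and none fell, with sums of 1356 and 2577 FPKM in Pd1CKO libraries, against 1878 and 2607 FPKM in controls. Gap43, a growth cone protein, rose by 0.89 (limma adjusted p = 0.0306). Tubb3, the other neuron marker named by its mean, was not called, at 0.54 (limma adjusted p = 0.104). It had 784 and 1389 FPKM in Pd1CKO libraries, against 1190 and 1411 FPKM in controls.

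Vessel and mural markers bear on Notch3 and Jag1, which these cells also express. Of 9 tested endothelial markers 6 fell at number 2 and none rose, with sums of 81.9 and 40.8 FPKM in Pd1CKO libraries, against 72.2 and 41.9 FPKM in controls. Cldn5, a tight junction protein of brain endothelium, had 28.6 and 13.8 FPKM in Pd1CKO libraries, against 28.6 and 15.2 FPKM in controls. Of 8 tested mural markers 2 rose and 2 fell, with sums of 49.5 and 33.4 FPKM in Pd1CKO libraries, against 42.4 and 33.9 FPKM in controls. No marker of these lists was at 0 in any library, and their part in the levels of Notch3 and Jag1 was not tested.

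Markers of meninges and diencephalon, and of choroid plexus and cortical hem, differed in summed level among the libraries, which touches both comparisons. Of 8 meninges markers 7 fell at number 2, with sums of 89.0 and 4.09 FPKM in Pd1CKO libraries, against 49.4 and 3.03 FPKM in controls. Of 6 tested diencephalon markers 2 fell, with sums over all 8 of 28.2 and 13.9 FPKM in Pd1CKO libraries, against 66.9 and 17.9 FPKM in controls. Control 1 had the highest diencephalon sum and the highest Hes5, Dll3 and Nrarp. The remaining members, Notch1, Notch2, Notch3, Dll1, Jag1, Hes1 and Hey1, were highest in Pd1CKO 1, where the diencephalon sum was 28.2 FPKM. Of 8 choroid plexus and cortical hem markers 4 fell at number 2, with sums of 291 and 345 FPKM in Pd1CKO libraries, against 216 and 24.5 FPKM in controls. Of 7 telencephalon markers 5 fell at number 2 and none rose. Of 7 globin genes 5 fell and 2 rose, and the embryonic Hbb-y had 1079 and 68.0 FPKM in Pd1CKO libraries, against 981 and 101 FPKM in controls. No marker of these lists was at 0 in any library, and their part in the members' values was not tested.

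Genes with the profile most like that of a member were sought by the Euclidean distance of log2(FPKM + 1), centred over the 4 libraries, among 5580 genes averaging 10 FPKM or more. For Dll1 the nearest was Sox9, a transcription factor of radial glia, at a distance of 0.0273, followed by Rrs1 at 0.0485 and Pabpc4 at 0.0511. Sox9 had 37.6 and 17.5 FPKM in Pd1CKO libraries, against 34.9 and 17.3 FPKM in controls. For Notch1 they were Ctnna1 at 0.0338, Lsm14a at 0.0352 and Snx5 at 0.0420. For Hes5 they were 1110065P20Rik at 0.189, Crabp2, a retinoic acid binding protein, at 0.271 and the member Dll3 at 0.290. The distances for Hes5 were larger than those for Dll1 and Notch1, and all rest on the same 4 libraries.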

How the data were processed

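Poly(A) RNA of 2 Pd1CKO and 2 control telencephalic samples was sequenced. The submitters' processing notes name the mm10 build and, without versions or roles, featureCounts, StringTie, HISAT2, TopHat, fastp and FastQC. The deposited table names no unit. Its values were taken to be FPKM, calculated by the authors: they sum to 294863 and 275598 in Pd1CKO 1 and 2 and to 307189 and 276084 in control 1 and 2. Multiplied by exon length in Gencode M21, which holds 99.8% of the genes, 97.3% to 97.5% of values below 200 fragments came out whole within 0.1 and gave the depths. The other 3 deposited tables repeat rows of this one and were not used further.

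Limma 3.58.1 in R 4.3.3 was fitted with an intensity trend to log2(FPKM + 1) of the 13927 genes averaging 1 FPKM or more, once with genotype and once with replicate number as the only term. P-values are two-sided, adjusted over all genes tested by Benjamini-Hochberg, and called under 0.05. The added 1 makes the fold changes of weakly expressed genes too small. The code was tested on simulated data. Within a number, ratios carry exact Clopper-Pearson 95% intervals of the recovered fragments, and levels exact Poisson intervals. Both cover counting error only. These were computed in Python 3.11.15 (scipy 1.17.1, pandas 2.3.3, numpy 2.4.6), and figures drawn with matplotlib 3.10.9. Promoters are from RefSeq (GRCm38.p6) and were matched by symbol.

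The members, gene lists and tests were chosen with earlier results of these data known. Besides the members, the rule named per pathway list the 2 genes with the smallest genotype p and the 2 with the highest mean, per marker list the 2 with the highest mean, and the 3 nearest profiles of Notch1, Dll1 and Hes5. Alternatives were other pseudocounts (0.1, 0.5), filters, scalings and priors, limma-voom on recovered fragments with trimmed-mean scaling, globin and mitochondrial genes left out, the replicate block, and each library left out. The summed levels of the telencephalon and proneural markers are not reported here.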

Additional observations from a re-analysis of the deposited data

How the results depend on the processing

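With 2 libraries per group and a split by number within each genotype, differences between genotypes smaller than that split could not be resolved for most members, and number 2 against number 1 compares libraries of unknown origin. Nrarp at number 2 is limited by depth. The replicate number as a block called 5 genes between Pd1CKO and control (3 higher, 2 lower), against 0 without it, and none of the 10 members (limma adjusted p from 0.805 to 0.983). The labels do not say that the numbers pair the samples, and with 2 pairs the correlation of 0.799 does not settle it.

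Between numbers, 4877 genes were called, 2976 with no filter on low values and 2614 to 6850 with 1 library left out, where the lone library of a group is assumed to vary like the others. Of 169 member values between genotypes under an alternative, 151 kept direction and call and 18 turned sign: Notch3 under limma-voom (-0.012), and the rest with 1 library left out. Left-out ranges were -0.17 to 0.43 for Notch1, 0.30 to 0.76 for Notch2, -0.68 to 0.72 for Notch3, -0.46 to 0.61 for Dll1, -1.77 to 1.28 for Dll3, -0.086 to 0.65 for Jag1, -0.86 to 1.15 for Hes1, -1.75 to 0.97 for Hes5, -0.51 to 0.68 for Hey1 and -1.68 to 2.00 for Nrarp. Between numbers 159 of 169 kept both. Notch2 turned to 0.26 without Pd1CKO 1, in a range of -0.57 to 0.26, and was called without control 1 (limma adjusted p = 0.0325). Notch1 lost its call with no filter (0.0693) and with globin and mitochondrial genes left out (0.0669). Jag1 gained one without control 1 (0.0112), with genotype beside the block (0.0334), under limma-voom (0.0376) and with length and GC trends removed (0.0260). The cause was not tested.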
